A study of Homo sapiens with 12 samples.

Results

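The 48 genes described here make up a curated list of type I interferon response genes, defined by gene symbol, with no measured value in the rule. All 48 were found by Ensembl identifier among the 20738 genes of the deposited table. The samples were the human papillomavirus-positive head and neck squamous cell carcinoma lines UM-SCC-47 and UPCI-SCC-090, exposed in culture to 500 nM JQ1, or to the vehicle alone (0.1% DMSO), over 72 h. JQ1 is a small-molecule inhibitor of BET bromodomains, which bind acetylated histones. Total RNA sequencing gave 3 libraries for each of the 4 groups, 12 in all. The question was at what level each line held these genes with DMSO and which of them fell, held or rose with JQ1. Each line is a single established line, so a difference between the lines and any difference in how their libraries were handled cannot be told apart.

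Type I interferons bind the receptor pair IFNAR1 and IFNAR2, which signals through the kinases JAK1 and TYK2. The complex ISGF3, which includes STAT2 and IRF9, then binds interferon-stimulated response elements (ISREs) near the start sites of its target genes. The products of those genes sense viral RNA, degrade it, block entry or translation, and include the components of ISGF3 itself. Many carcinoma lines carry a standing level of these transcripts in the absence of added interferon.

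Levels are given as CPM, the count of a gene scaled to a common library total, after TMM scaling over all 12 libraries. Each log2 fold change comes from an edgeR quasi-likelihood fit over all genes of that comparison, with its own scaling, so it can differ slightly from the ratio of the CPM means. The threshold for a call was 0.05 on the p adjusted by Benjamini and Hochberg's method, and "not called" covers genes whose change was not distinguished from the spread between libraries. The labels do not say whether the 3 libraries of a group came from separate cultures, so the p-values measure the spread between these libraries, which may be technical. Estimated counts summed to between 20349275 and 30788657 per library.

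The summed CPM of 9 epithelial marker genes was 11400 to 13700 in the UM-SCC-47 DMSO libraries and 7640 to 12200 in the UPCI-SCC-090 DMSO libraries. Against these sums, 10 leukocyte markers summed to at most 49 CPM in any library, and the T cell gene CD3D, the B cell gene MS4A1 and the plasmacytoid dendritic cell gene LILRA4 were at 0 throughout. CD68, a lysosomal protein that carcinoma cells also make, gave most of the leukocyte sum, with a mean of 37.2 CPM in UM-SCC-47 with DMSO. Fibroblast markers (6 genes) stayed at or under 30.7 CPM and endothelial markers (2 genes) at or under 8.08 CPM in every library. With JQ1 the epithelial sum was higher, at 40600 to 60700 CPM in UM-SCC-47 and at 21400 to 35200 CPM in UPCI-SCC-090, and its part in the results below was not tested. The 9 genes did not rise together. In UM-SCC-47 most of the rise came from the means of KRT8 (5530 to 27800 CPM) and KRT18 (2230 to 15500 CPM). KRT5 and KRT6A were called lower there. In UPCI-SCC-090 most of it came from KRT6A (4550 to 11900 CPM) and KRT19 (2900 to 11000 CPM), and KRT8 and KRT18 were not called.

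Promoter windows of 300 bases were held for 40 of the 48 genes in the RefSeq table (GRCh38.p14, 250 bases before to 50 after the start). The ISRE core, spelled as GAAA, any 2 bases and GAAA and searched on both strands, lay in at least 1 window of 28 of these 40 genes (70%), against 1255 of all 35116 windows (3.57%). The site of STAT dimers, TTCNNNGAA, lay in 12 of the 40 (30%) against 7.66% of all windows, and in 5 genes it shared bases with an ISRE core. The shares of the 40 are per gene, with a match in any of its windows counted, and those of all windows are per window. They are therefore not like for like. A match is a description of the letters and not evidence of binding. The stretches below lie before the start site and were picked after the expression values were seen, because these 8 genes show the range of responses. Each is printed 5′ to 3′ in the direction of the gene, with the ISRE core on either strand in capitals.

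OAS3 (chr12:112938311-112938473, plus strand): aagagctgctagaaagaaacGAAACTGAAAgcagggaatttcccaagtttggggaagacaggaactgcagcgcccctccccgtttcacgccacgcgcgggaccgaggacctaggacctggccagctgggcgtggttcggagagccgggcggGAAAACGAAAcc
IFI44L (chr1:78620264-78620404, plus strand): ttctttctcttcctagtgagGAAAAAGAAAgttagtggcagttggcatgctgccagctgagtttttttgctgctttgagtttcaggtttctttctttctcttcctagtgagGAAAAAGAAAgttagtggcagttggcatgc
IFIT1 (chr10:89392487-89392549, plus strand): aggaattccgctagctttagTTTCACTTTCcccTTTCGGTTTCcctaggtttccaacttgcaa
EPSTI1 (chr13:42992262-42992311, minus strand): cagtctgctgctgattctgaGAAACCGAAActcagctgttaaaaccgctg
IFITM3 (chr11:320866-320932, minus strand): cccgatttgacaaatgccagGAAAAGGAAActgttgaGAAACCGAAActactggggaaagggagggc
ISG15 (chr1:1013364-1013419, plus strand): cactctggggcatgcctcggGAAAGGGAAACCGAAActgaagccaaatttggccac
IFI6 (chr1:27672256-27672368, minus strand): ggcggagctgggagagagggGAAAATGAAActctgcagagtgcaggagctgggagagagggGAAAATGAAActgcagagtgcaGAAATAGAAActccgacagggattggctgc
LGALS3BP (chr17:78979952-78980001, minus strand): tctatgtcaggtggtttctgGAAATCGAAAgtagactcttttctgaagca

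The first 5 of these genes fell with JQ1 in UM-SCC-47, ISG15 was not called there, and IFI6 and LGALS3BP rose. Over the 40 genes, 10 of the 28 with an ISRE core were lower with JQ1 in UM-SCC-47 and 2 were higher, while 5 of the 12 without one were lower and none was higher in edgeR's test. OAS1 and CMPK2, whose falls were among the larger ones, had no ISRE core in these windows. An ISRE core was thus present in promoters of genes that fell, held and rose.

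With DMSO, the 48 genes were much higher in UM-SCC-47 than in the other line. In edgeR's test 44 of the 48 (91.7%) were lower in UPCI-SCC-090 and 0 were higher (0 also at an unadjusted p under 0.05, and 0 in DESeq2), against 25.3% lower and 22.7% higher among the 14108 genes tested. The median log2 difference was -4.41 over the 48 genes and -0.01 over all genes. All 44 had no overlap between the 3 libraries of one line and the 3 of the other, whereas 27.6% of all genes tested lay wholly lower in UPCI-SCC-090 and 30.6% wholly higher. The RNA of a culture was measured as a whole, so fewer cells making a transcript and less of it per cell cannot be told apart.

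In UM-SCC-47 with DMSO, 42 genes had a mean of at least 10 CPM and none was under 1 CPM. In UPCI-SCC-090, 13 reached 10 CPM and 19 were under 1 CPM. The CPM of the 48 genes summed to between 4450 and 4640 in the UM-SCC-47 libraries and to between 1040 and 1220 in those of UPCI-SCC-090. ADAR made up most of the UPCI-SCC-090 sum, at a mean of 647 CPM.

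**Figure D1:**
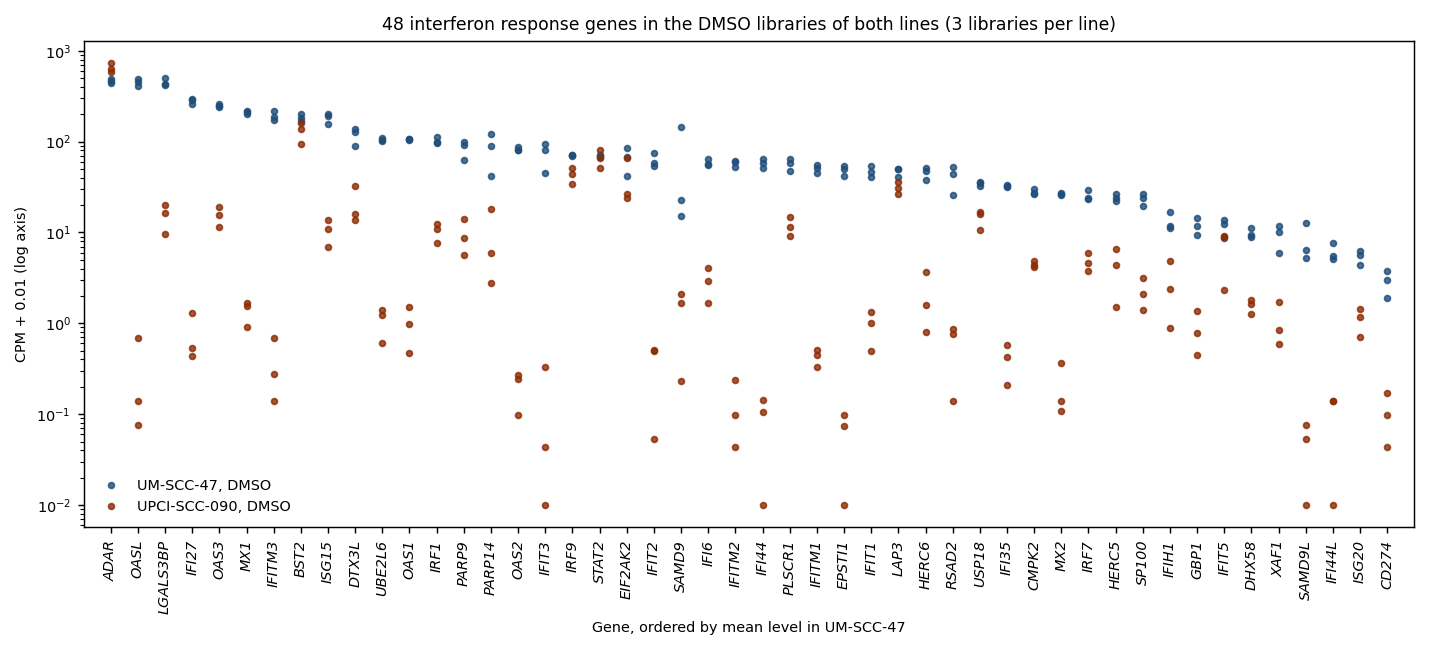
Level of each of the 48 genes in the 3 DMSO libraries of UM-SCC-47 (blue) and UPCI-SCC-090 (brown), as CPM + 0.01 on a log axis, ordered by the mean in UM-SCC-47. The UM-SCC-47 points lie above 1 CPM for every gene, while most UPCI-SCC-090 points lie 1 or more decades lower, with ADAR, STAT2, BST2, IRF9, LAP3, EIF2AK2 and IFIT5 close to the other line.

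The 5 largest of these differences were in OASL, EPSTI1, IFI44, IFIT3 and IFITM3. OASL, an OAS family protein without synthetase activity that assists RNA sensing, was at 457, 486 and 410 CPM in UM-SCC-47 and at 0.0665, 0.131 and 0.678 CPM in UPCI-SCC-090. Its log2 difference was -10.68 ± 0.67 (SE; edgeR adjusted p = 1.8e-05). IFITM3, a membrane protein that restricts virus entry, was at 173, 219 and 187 CPM against 0.266, 0.131 and 0.678 CPM (log2 difference -9.16 ± 0.52, edgeR adjusted p = 1.2e-05). Both were thus close to absent in the second line and abundant in the first.

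EPSTI1, IFI44 and IFIT3 were each near the limit of detection in UPCI-SCC-090, where 4, 7 and 11 counts were summed over its 3 DMSO libraries. A total of 3 counts over this group corresponds to 0.0358 CPM, a limit that covers counting error only. EPSTI1, an interferon-induced protein first described in epithelial-stromal cultures, was at 50.2, 42.2 and 53.2 CPM in UM-SCC-47 (log2 difference -10.01 ± 0.53, edgeR adjusted p = 1e-05). IFI44 was at 51.2, 57.7 and 64.1 CPM there (-9.52 ± 0.55, edgeR adjusted p = 1.4e-05). IFIT3, which binds IFIT1 on viral RNA, was at 80.6, 45.5 and 94.1 CPM (-9.26 ± 0.82, edgeR adjusted p = 8.2e-05). Fitted differences of this size rest on few counts in the lower line.

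Of the transcription factors, 3 of 4 were called between the lines. STAT2 was at 68.7, 70.9 and 67.6 CPM in UM-SCC-47 and at 51.5, 80.2 and 66.5 CPM in UPCI-SCC-090, so the lines overlapped (log2 difference -0.24 ± 0.18, edgeR adjusted p = 0.31). IRF9 was at 71.4, 71.1 and 70.1 CPM against 34.2, 51.5 and 44.5 CPM (log2 difference -0.88 ± 0.18, edgeR adjusted p = 0.0051). Both of these ISGF3 subunits were therefore within a factor of 2 in the lines, whereas IRF1 and IRF7 were not. IRF1 was at 99, 111 and 95.6 CPM against 7.71, 12.5 and 10.8 CPM (log2 difference -3.48 ± 0.22, edgeR adjusted p = 1.8e-05). IRF7, the factor that drives transcription of the interferon genes themselves, was at 23.3, 29.5 and 24.2 CPM against 3.72, 5.91 and 4.62 CPM (log2 difference -2.61 ± 0.25, edgeR adjusted p = 0.00013).

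STAT2, IFIT5, EIF2AK2 and ADAR were the 4 genes not called between the lines. ADAR, which converts adenosine to inosine in double-stranded RNA, was at 463, 493 and 444 CPM in UM-SCC-47 and at 580, 736 and 623 CPM in UPCI-SCC-090 (log2 difference 0.30 ± 0.15, edgeR adjusted p = 0.13). BST2, or tetherin, which holds budding virions at the cell surface, was called at a small difference (185 against 131 CPM, log2 difference -0.68 ± 0.20, edgeR adjusted p = 0.027), and the call was lost in 9 of 15 alternative analyses, among them RLE size factors (edgeR adjusted p = 0.067). Per kilobase of annotated exon, ISG15 was the highest of the 48 in UM-SCC-47 at 211 CPM per kilobase, followed by BST2 at 168 and LGALS3BP at 131. In UPCI-SCC-090 the order was BST2 at 119, ADAR at 52.8 and ISG15 at 12.1 CPM per kilobase.

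With JQ1 in UM-SCC-47, the genes that fell included OAS1, OAS2, OAS3 and OASL, and none of the 4 transcription factors was called. In edgeR's test 20 of the 48 (41.7%) were lower and 3 (6.25%) were higher with JQ1, and 25 were not called. Among all 13440 genes tested, 25.5% were lower and 16.1% higher. The median log2 fold change was -0.54 over the 48 genes and -0.03 over all genes. Under RLE size factors the median of all genes moved to 0.12, with 48% of all calls higher instead of 38.7%, and under library size alone it moved to -0.28, with 24.1% higher. The number of the 48 called lower was then 18 (37.5%, against 21.2% of all genes) and 25 (52.1%, against 34.1%).

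**Figure D2:**
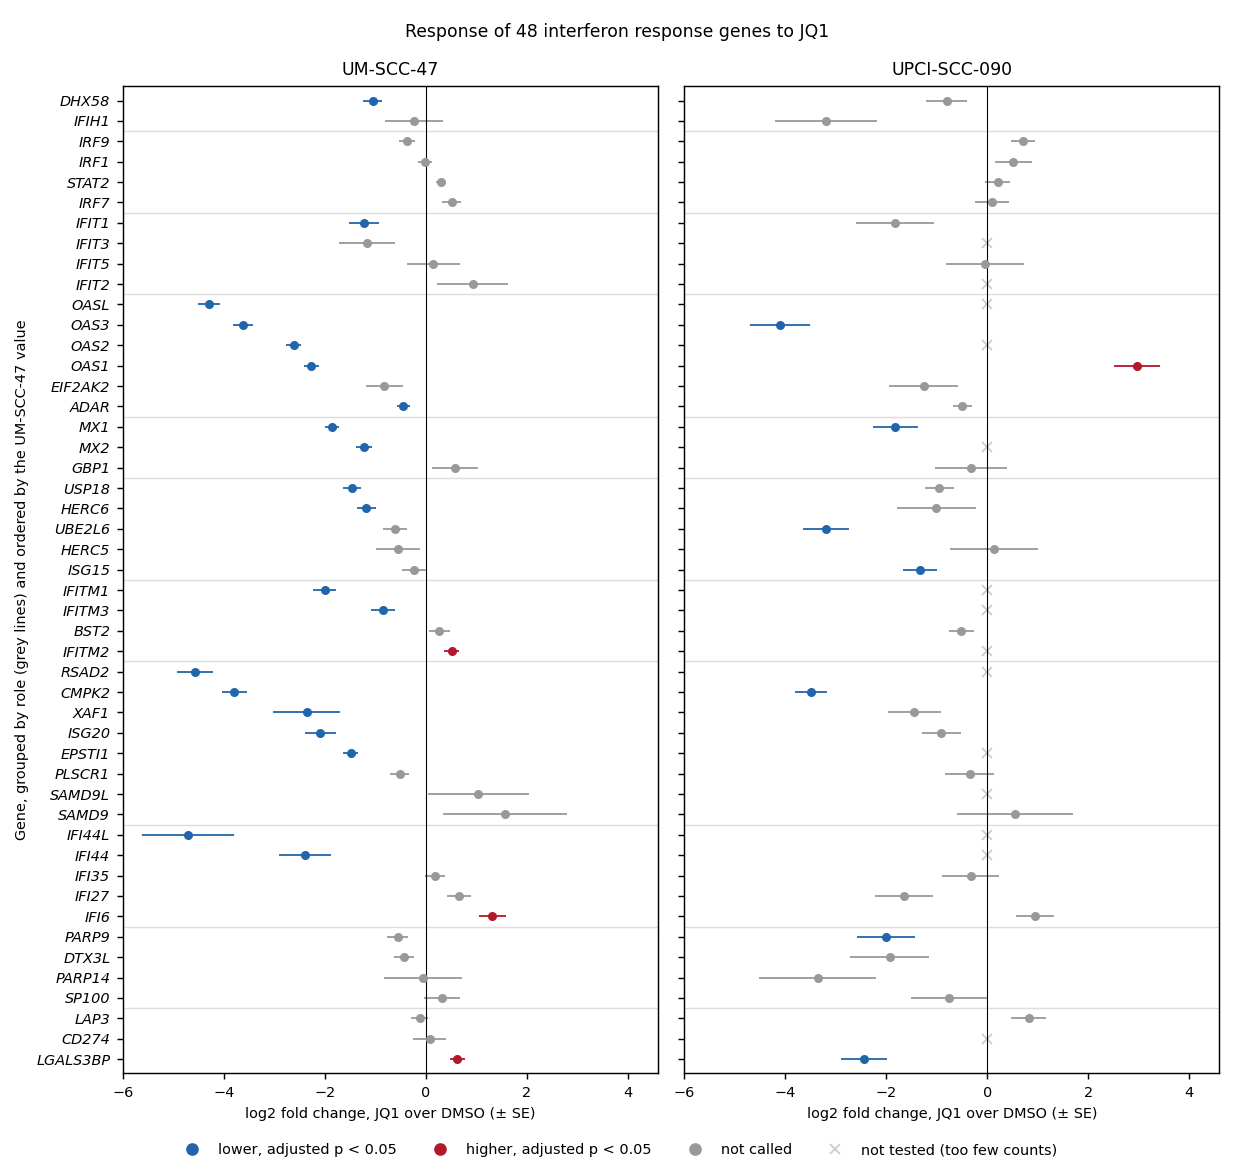
Log2 fold change with JQ1 (± SE) of the 48 genes in UM-SCC-47 (left) and UPCI-SCC-090 (right), grouped by role and coloured by the edgeR call at an adjusted p under 0.05; crosses mark the 14 genes not tested in UPCI-SCC-090. In UM-SCC-47 the OAS genes, RSAD2, CMPK2 and IFI44L lie farthest to the left, and in UPCI-SCC-090 OAS3 lies at -4.10 while OAS1 lies at 2.97.

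The OAS family fell as a whole in UM-SCC-47. OAS1, OAS2 and OAS3 make 2′-5′ oligoadenylates, which activate RNase L, and lie next to each other on chromosome 12 (GRCh37 positions 113343661 to 113449528). OASL went from 457, 486 and 410 CPM with DMSO to 20.4, 29.8 and 19.5 CPM with JQ1 (log2 fold change -4.29 ± 0.22, edgeR adjusted p = 0.00013). OAS3 went from 244, 261 and 243 CPM to 24.7, 16 and 20.8 CPM (-3.62 ± 0.19, edgeR adjusted p = 0.00013). Only 5.14% of the DMSO level of OASL and 8.23% of that of OAS3 remained. OAS2 went from 80.9, 81.8 and 87.4 CPM to 13.9, 15.5 and 11.8 CPM (-2.62 ± 0.15, edgeR adjusted p = 0.00015). OAS1 went from 106, 103 and 107 CPM to 21.3, 25.9 and 19 CPM (-2.27 ± 0.15, edgeR adjusted p = 0.00022). The groups did not overlap for any of these genes.

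Of the other enzymes that act on double-stranded RNA, ADAR was lower at a mean of 345 CPM with JQ1 against 467 CPM (log2 fold change -0.45 ± 0.13, edgeR adjusted p = 0.032), a call lost in 12 of 15 alternative analyses. EIF2AK2, the kinase PKR that halts translation when it binds double-stranded RNA, was not called (-0.82 ± 0.36, edgeR adjusted p = 0.11), and its groups overlapped at 42.3 to 84.7 CPM against 28.6 to 54.1 CPM.

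RSAD2 and CMPK2 had some of the largest falls in UM-SCC-47. RSAD2 is viperin, an enzyme that makes a chain-terminating nucleotide, and CMPK2 is a nucleotide kinase. They lie head to head on chromosome 2, with the annotated ends of the genes overlapping (GRCh37 positions 7005688 to 7006766) and promoter windows that share 165 bases, so part of their reads could be assigned to either. RSAD2 went from 43.7, 25.7 and 52.1 CPM to 1.41, 1.69 and 2.07 CPM (log2 fold change -4.57 ± 0.35, edgeR adjusted p = 0.00029). CMPK2 went from 26.7, 30.1 and 26.9 CPM to 2.3, 2.3 and 1.47 CPM (-3.79 ± 0.24, edgeR adjusted p = 0.00018). Every JQ1 library was far under every DMSO library for both genes.

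IFI44L and IFI44, neighbouring genes on chromosome 1 whose products dampen virus replication, also fell. IFI44L went from 5.45, 5.04 and 7.63 CPM to 0, 0.112 and 0.607 CPM (log2 fold change -4.71 ± 0.91, edgeR adjusted p = 0.0074). The JQ1 value rests on 14 counts over 3 libraries. IFI44 went from 51.2, 57.7 and 64.1 CPM to 9.1, 4.55 and 19.5 CPM (-2.39 ± 0.51, edgeR adjusted p = 0.011), and without JQ1 replicate 1 its adjusted p was 0.05. Of the other IFI genes, IFI35 was not called, at 32.4 CPM with DMSO and 37.1 CPM with JQ1.

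XAF1, a pro-apoptotic binding partner of XIAP, went from 10.1, 5.86 and 11.9 CPM to 1.26, 0.562 and 3.64 CPM (log2 fold change -2.36 ± 0.67, edgeR adjusted p = 0.03). Its call was lost in 3 of 15 alternatives, which left out DMSO replicate 1, DMSO replicate 3 or JQ1 replicate 1. MX1, a dynamin-like GTPase that traps incoming viral particles, went from 202, 217 and 214 CPM to 60.2, 66.8 and 50.4 CPM (-1.85 ± 0.14, edgeR adjusted p = 0.00028). The libraries of each group were tight for MX1 and the groups did not overlap. MX2 fell with it, from a mean of 26.2 to 11.3 CPM (-1.23 ± 0.16, edgeR adjusted p = 0.0018), whereas GBP1, another interferon-induced GTPase, was not called (0.58 ± 0.45, edgeR adjusted p = 0.34). ISG20, a 3′-5′ exonuclease, and EPSTI1 fell to 23.9% and 36% of their DMSO means.

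The IFIT family, whose proteins hold viral RNA ends, had 1 of 4 members called. IFIT1 went from 41.2, 46.8 and 53.3 CPM to 17.6, 13.8 and 29.4 CPM (log2 fold change -1.23 ± 0.30, edgeR adjusted p = 0.018), and the call was lost in 4 of 15 alternatives. IFIT2 was at 54.5, 57.9 and 74 CPM with DMSO and at 87.6, 28.1 and 243 CPM with JQ1 (0.93 ± 0.70, edgeR adjusted p = 0.32). The 3 JQ1 libraries of IFIT2 thus spread widely around the DMSO values. IFIT3 (-1.16 ± 0.55, edgeR adjusted p = 0.14) and IFIT5 (0.15 ± 0.53, edgeR adjusted p = 0.84) were not called either.

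Of the 5 genes grouped here under the ISG15 system, 2 were called. ISG15, a ubiquitin-like protein that is attached to other proteins, was at 191, 203 and 156 CPM with DMSO and at 157, 206 and 111 CPM with JQ1 (log2 fold change -0.23 ± 0.24, edgeR adjusted p = 0.48). USP18, the protease that removes ISG15 and also restrains the interferon receptor, fell from a mean of 34.5 to 12.7 CPM (-1.46 ± 0.18, edgeR adjusted p = 0.0015). USP18 has a near-identical copy elsewhere in the genome, so its counts are uncertain. Of the other genes in this group, HERC6 fell (-1.18 ± 0.19, edgeR adjusted p = 0.0041), and UBE2L6 (-0.61 ± 0.23, edgeR adjusted p = 0.079) and HERC5 (-0.55 ± 0.43, edgeR adjusted p = 0.34) were not called.

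The IFITM proteins, which block fusion of viral and cellular membranes, did not share a direction. IFITM1 fell from 45.3, 51.1 and 55.6 CPM to 12.3, 16.4 and 9.66 CPM (log2 fold change -2.0 ± 0.23, edgeR adjusted p = 0.0011). IFITM3 was at 173, 219 and 187 CPM with DMSO and at 99.4, 146 and 80.1 CPM with JQ1 (-0.85 ± 0.24, edgeR adjusted p = 0.029), a call lost in 9 of 15 alternatives. IFITM2 rose from 52.9, 61.1 and 59.3 CPM to 81.7, 94.6 and 72 CPM (0.51 ± 0.14, edgeR adjusted p = 0.032), a call lost in 6 of 15. IFITM2 and IFITM3 are near-identical in sequence, and how the estimated counts divided shared reads between them is uncertain. BST2 was not called (0.27 ± 0.21, edgeR adjusted p = 0.34).

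**Figure D3:**
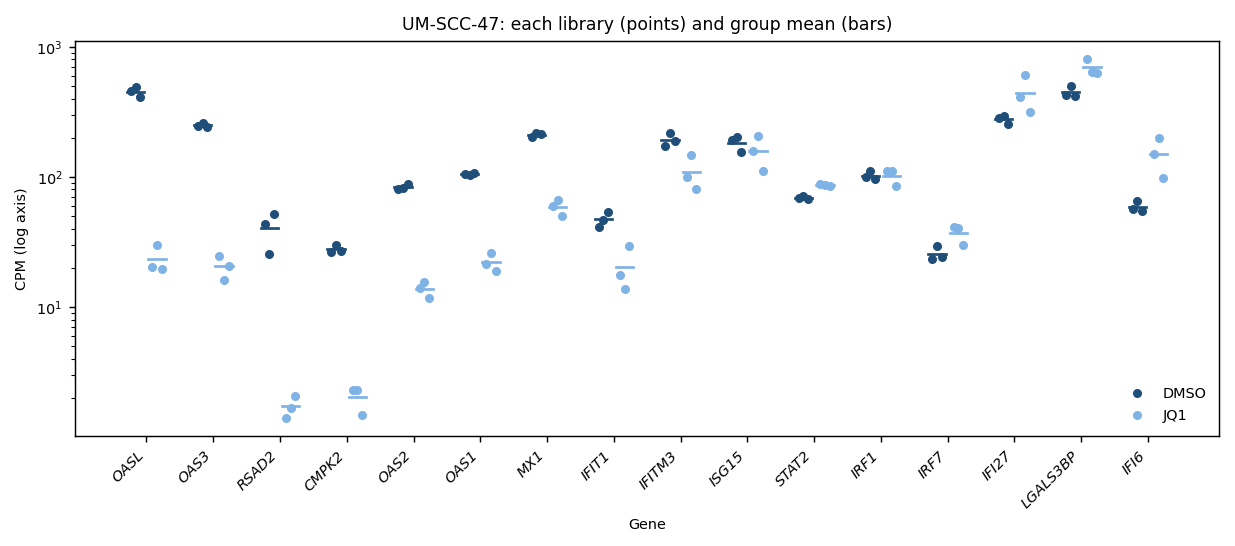
CPM of 16 of the genes in each UM-SCC-47 library (points, log axis) with group means (bars), DMSO in dark blue and JQ1 in light blue. OASL, OAS3, RSAD2 and CMPK2 are more than 10 times lower in the JQ1 mean, ISG15 and IRF1 overlap, and LGALS3BP and IFI6 are higher.

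The factors that transcribe these genes were not called in UM-SCC-47. STAT2 was at 68.7, 70.9 and 67.6 CPM with DMSO and at 87.6, 86.6 and 84.9 CPM with JQ1 (log2 fold change 0.31 ± 0.10, edgeR adjusted p = 0.051), with no overlap between the groups, and it passed the threshold under RLE size factors (0.46, edgeR adjusted p = 0.026). IRF9 was at 71.4, 71.1 and 70.1 CPM against 51, 66.9 and 47.1 CPM (-0.38 ± 0.16, edgeR adjusted p = 0.1). IRF7 was at 23.3, 29.5 and 24.2 CPM against 41.1, 40.3 and 29.8 CPM (0.51 ± 0.18, edgeR adjusted p = 0.066). IRF1 had nearly the same mean in both groups, with 99, 111 and 95.6 CPM against 110, 110 and 85.7 CPM (-0.01 ± 0.14, edgeR adjusted p = 0.95). None of the 4 was lower by a factor of 2 in its mean.

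Of the cytosolic RNA sensors, DHX58, which encodes LGP2, fell from a mean of 9.8 to 4.78 CPM (log2 fold change -1.05 ± 0.19, edgeR adjusted p = 0.006). IFIH1, which encodes MDA5, was at 11.9, 11.2 and 16.7 CPM with DMSO and at 8.88, 3.99 and 21.3 CPM with JQ1, so the groups overlapped (-0.23 ± 0.57, edgeR adjusted p = 0.77).

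IFI6, LGALS3BP and IFITM2 were the 3 genes that rose with JQ1 in UM-SCC-47. IFI6, a small membrane protein that limits flavivirus replication, went from 56.6, 64.9 and 55 CPM to 149, 200 and 97.8 CPM (log2 fold change 1.32 ± 0.26, edgeR adjusted p = 0.0081). LGALS3BP, a secreted glycoprotein that binds galectins, went from 428, 498 and 417 CPM to 809, 643 and 628 CPM (0.62 ± 0.15, edgeR adjusted p = 0.016). IFI6 was called in all 15 alternatives and LGALS3BP in 10. IFI27, a related mitochondrial protein, was at 284, 292 and 257 CPM with DMSO and at 410, 604 and 316 CPM with JQ1, with no overlap but no call (0.66 ± 0.24, edgeR adjusted p = 0.068).

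CD274, which encodes the checkpoint ligand PD-L1, was low and was not called. It was at 3, 1.88 and 3.75 CPM with DMSO and at 2.41, 2.81 and 3.99 CPM with JQ1 (log2 fold change 0.08 ± 0.33, edgeR adjusted p = 0.86). LAP3, a leucine aminopeptidase, and the PARP9, DTX3L, PARP14 and SP100 genes of chromatin and nuclear bodies had log2 fold changes between -0.56 and 0.32 and were not called. SAMD9 and SAMD9L, which limit translation in infected cells, were also not called, with SAMD9 at 15, 144 and 22.5 CPM against 149, 18.1 and 375 CPM.

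The differences between the JQ1 libraries of a line varied with GC content. The 48 genes had a median GC content of 45.2%, against 48.5% of all genes tested. In UM-SCC-47 with JQ1, the deviation of a gene from its mean over the line's libraries changed by -0.53 (log2) per 10 points of GC in replicate 3 and by 0.23 in replicate 2. Of the 23 genes under 45% GC with a mean of at least 1 CPM, 20 were higher in replicate 3 than in replicate 2, and of the 24 at or above 45% GC only 3 were. OAS1, MX1 and USP18, all under 45% GC, were the 3 that were lower in replicate 3. The spread of SAMD9 with DMSO ran the other way, since this gene of 36% GC was highest in DMSO replicate 2, whose trend was 0.22. The rank correlation of that difference with GC was -0.74 over 47 genes, which share their libraries and are not independent. When each library's trend with GC was removed, 22 of the 48 genes were lower (45.8%, against 25.3% of all genes) and 8 higher (16.7%, against 24.8%) with JQ1, with STAT2 (0.48, edgeR adjusted p = 0.0065) and IRF7 (0.87, edgeR adjusted p = 0.00085) among the higher ones.

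**Figure D4:**
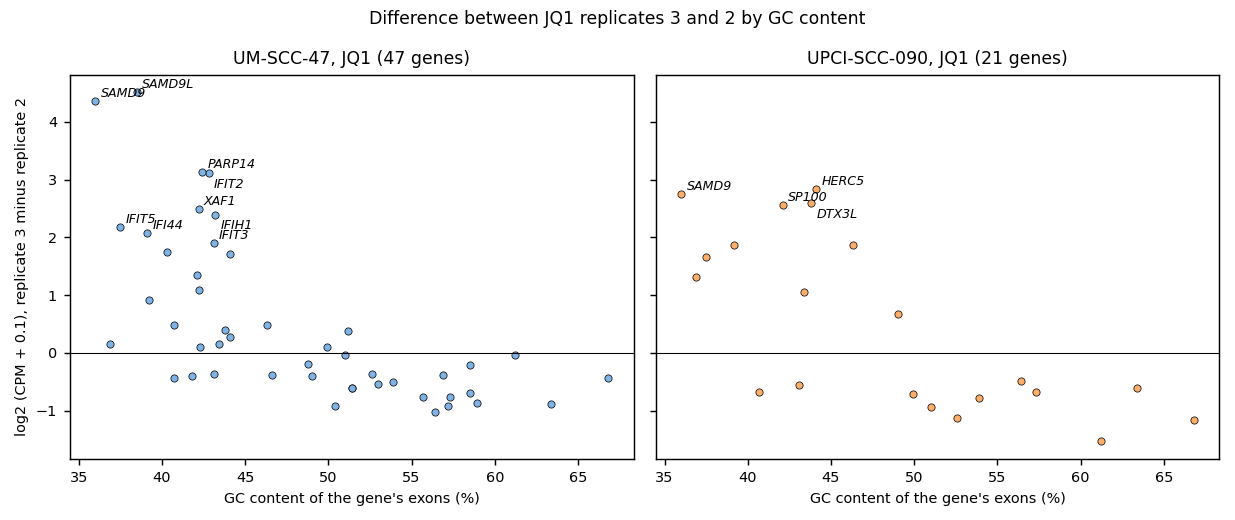
Difference between JQ1 replicates 3 and 2, as log2 (CPM + 0.1), against the GC content of the exons of each gene's longest transcript, for genes whose JQ1 mean reached 1 CPM in UM-SCC-47 (left, 47 genes) and UPCI-SCC-090 (right, 21 genes). Genes under 45% GC mostly lie above 0 and those above it mostly below, in both lines.

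In UPCI-SCC-090 fewer of the genes could be tested, because 14 had too few counts in both groups. Among the 34 tested, edgeR called 7 lower (20.6%) and 1 higher (2.94%) with JQ1, against 20.4% lower and 7.67% higher among all 13150 genes. The share called lower was about that of all genes here, but the gap varied with the setting. The share was 35.3% against 23.3% under library size alone, 32.4% against 23.9% with the replicate block, and 33.3% against 22.4% in the fit over 12 libraries, which tested all 48. The gap was smaller under RLE size factors (17.6% against 13.3%), with no filter on low counts (14.6% against 12.4%) and without JQ1 replicate 2 (21.6% against 20.6%). The median log2 fold change was -0.86 over the 34 and -0.14 over all genes, which moved to 0.14 under RLE size factors and to -0.38 under library size alone, with 42.3% and 17.1% of all calls higher instead of 27.4%. The number of the genes called lower was then 6 and 12. OAS3, MX1 and CMPK2 were lower in both lines, and OAS1 and LGALS3BP were called in opposite directions. The share of all genes with such joint calls was not computed. The tests in the lines do not share libraries, but each shares its DMSO libraries with the comparison of the lines above.

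The UPCI-SCC-090 libraries also differed in their trend with GC content, at 0.7 (log2 per 10 points of GC) in DMSO replicate 2 and -0.78 in JQ1 replicate 3. Of the 10 genes under 45% GC with a mean of at least 1 CPM with JQ1, 8 were higher in JQ1 replicate 3 than in replicate 2, and of the 11 at or above 45% GC 2 were (rank correlation -0.69 over 21 genes). With the trends removed, 12 of the 34 genes were lower (35.3%, against 26.4% of all genes) and 5 higher (14.7%, against 19.5%) with JQ1, and of the 7 called lower before, 5 were called again.

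OAS3 had the largest fall in UPCI-SCC-090, from 11.6, 19.2 and 15.4 CPM to 1.71, 0.871 and 0.345 CPM (log2 fold change -4.10 ± 0.60, edgeR adjusted p = 0.0051). CMPK2 fell from 4.12, 4.42 and 4.78 CPM to 0.4, 0.581 and 0.307 CPM (-3.49 ± 0.31, edgeR adjusted p = 0.0037). Both kept their call in all 15 alternatives, as did UBE2L6 and OAS1. UBE2L6, the enzyme that carries ISG15 to its targets, fell from 0.598, 1.23 and 1.39 CPM to 0.145, 0.145 and 0.0767 CPM (-3.19 ± 0.46, edgeR adjusted p = 0.0051), the JQ1 value resting on 9 counts.

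Among the other genes lower in UPCI-SCC-090, the calls were less stable. ISG15 went from 6.95, 13.6 and 11 CPM to 4.51, 5.52 and 3.57 CPM (log2 fold change -1.33 ± 0.33, edgeR adjusted p = 0.026), a call lost in 10 of 15 alternatives. MX1 went from 0.898, 1.53 and 1.68 CPM to 0.291, 0.726 and 0.268 CPM (-1.82 ± 0.44, edgeR adjusted p = 0.024), lost in 9. PARP9, which works as a complex with the ubiquitin ligase DTX3L, went from 14.2, 5.64 and 8.69 CPM to 3.6, 1.26 and 2.72 CPM (-2.0 ± 0.58, edgeR adjusted p = 0.045), lost in 5. DTX3L, whose promoter window shares 137 bases with that of PARP9, was not called (-1.93 ± 0.78, edgeR adjusted p = 0.12). The 2 genes overlap at their starts, and some reads could be assigned to either.

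OAS1 was the one tested gene that rose in UPCI-SCC-090. It was at 0.465, 0.963 and 1.52 CPM with DMSO and at 8.11, 10.5 and 6.52 CPM with JQ1 (log2 fold change 2.97 ± 0.46, edgeR adjusted p = 0.006), from 83 counts to 610 over 3 libraries each. OAS3, its neighbour on chromosome 12, fell in the same libraries. OAS2, on the other side of OAS3, summed to 17 counts with DMSO and 1 count with JQ1 and was not tested.

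IFIH1 and PARP14 had large fitted changes in UPCI-SCC-090 that were not called. IFIH1 was at 4.79, 0.875 and 2.36 CPM with DMSO and at 0.182, 0.0484 and 0.652 CPM with JQ1 (log2 fold change -3.20 ± 1.01, edgeR adjusted p = 0.057). PARP14, an ADP-ribosyltransferase, was at 18.2, 2.76 and 5.97 CPM against 0.727, 0.0968 and 1.84 CPM (-3.36 ± 1.16, edgeR adjusted p = 0.075). For both genes the groups did not overlap, but DMSO replicates 1 and 2 differed several-fold. With the GC trend removed both were called, IFIH1 at an edgeR adjusted p of 0.0071 and PARP14 at 0.0078.

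The transcription factors were not called in UPCI-SCC-090 under TMM scaling. STAT2 was at 51.5, 80.2 and 66.5 CPM with DMSO and at 82.8, 111 and 57.8 CPM with JQ1 (log2 fold change 0.21 ± 0.25, edgeR adjusted p = 0.6). IRF9 was at 34.2, 51.5 and 44.5 CPM against 74.2, 99.8 and 57.8 CPM, with no overlap (0.71 ± 0.24, edgeR adjusted p = 0.073). IRF1 was at 7.71, 12.5 and 10.8 CPM against 12.4, 25.2 and 11.5 CPM (0.52 ± 0.36, edgeR adjusted p = 0.33), and IRF7 at 3.72, 5.91 and 4.62 CPM against 4.83, 8.23 and 3.61 CPM (0.09 ± 0.34, edgeR adjusted p = 0.89). With the GC trends removed, 3 of the 4 were called higher, IRF7 at 0.97 (edgeR adjusted p = 0.006), IRF9 at 0.98 (0.0017) and IRF1 at 0.70 (0.024). IRF9 was also called in the fit over all 12 libraries (edgeR adjusted p = 0.022), while IRF7 was at -0.11 under library size alone.

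IFI6 was at 1.66, 2.89 and 4.1 CPM with DMSO and at 5.49, 7.31 and 5.18 CPM with JQ1 in UPCI-SCC-090 (log2 fold change 0.95 ± 0.38, edgeR adjusted p = 0.11). IFIT1 was at 1.33, 0.481 and 1 CPM against 0.254, 0.0484 and 0.499 CPM (-1.83 ± 0.77, edgeR adjusted p = 0.13). Neither was called. Summed over 3 libraries, IFITM3 had 32 counts with DMSO and 8 with JQ1, and CD274 had 8 and 11, so neither was tested.

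Whether the JQ1 response differed between the lines was tested as an interaction over all 12 libraries. In edgeR's test 4 of the 48 genes had a more negative response in UPCI-SCC-090 (8.33%) and 1 a more positive one (2.08%), against 3.63% and 2.93% of all 14396 genes. The difference was 5.34 ± 0.52 for OAS1 (edgeR adjusted p = 0.00028), which fell in UM-SCC-47 and rose in UPCI-SCC-090. It was -2.94 ± 0.50 for LGALS3BP (edgeR adjusted p = 0.0062), which rose in UM-SCC-47 and fell in UPCI-SCC-090 from 9.51, 20.1 and 16.2 CPM to 3.16, 4.6 and 1.53 CPM (-2.44 ± 0.45, edgeR adjusted p = 0.0098; 0.074 without JQ1 replicate 1). These 2 differences were called in all 20 alternatives.

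**Figure D5:**
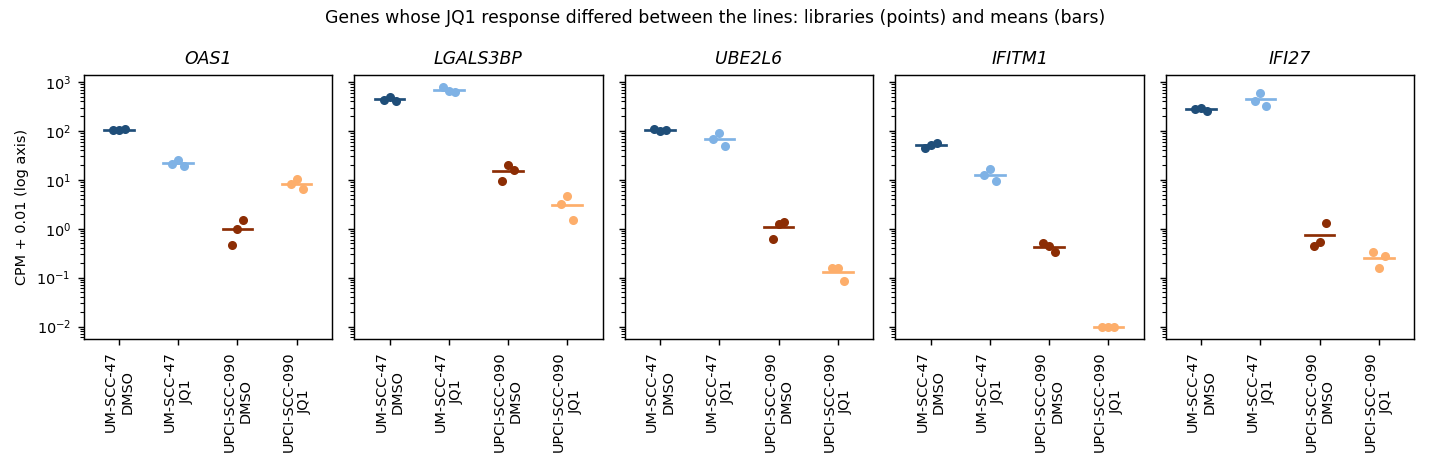
CPM + 0.01 on a log axis of the 5 genes called in the interaction test, in each library (points) with group means (bars). OAS1 falls from 105 to 22.1 CPM in UM-SCC-47 and goes from 0.982 to 8.38 CPM in UPCI-SCC-090, and IFITM1 is at 0 in all 3 UPCI-SCC-090 JQ1 libraries.

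The other 3 differences were UBE2L6 (-2.49 ± 0.54, edgeR adjusted p = 0.019), IFITM1 (-4.43 ± 0.79, edgeR adjusted p = 0.011) and IFI27 (-2.24 ± 0.59, edgeR adjusted p = 0.045). IFITM1 was at 0.499, 0.438 and 0.323 CPM with DMSO in UPCI-SCC-090 and at 0 in each JQ1 library. Against the limit of 3 counts over that group it was at least 10.3-fold lower with JQ1, and its fitted difference depends on the prior count. With 35 counts over the DMSO libraries, IFITM1 was not tested within UPCI-SCC-090 and passed the interaction's count filter through UM-SCC-47. IFI27 was at 0.432, 0.525 and 1.29 CPM with DMSO and at 0.327, 0.145 and 0.268 CPM with JQ1 in UPCI-SCC-090, and its call was lost in 13 of 20 alternatives. OAS3, MX1 and CMPK2, lower in both lines, had differences of -0.36 ± 0.57, 0.13 ± 0.53 and 0.41 ± 0.43 (edgeR adjusted p = 0.82, 0.95 and 0.69), which does not show that the lines responded alike.

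The rest of the pathway was read from a list of 37 genes for ligands, receptors, kinases, sensors, adaptors and feedback regulators, of which 36 were matched. No interferon gene was expressed at more than a trace: of the 9 ligand genes, IFNA1, IFNA2 and IFNG had no count in any library, and the highest group mean was 0.13 CPM, for IFNE. In UM-SCC-47, edgeR called 8 of the 27 tested pathway genes lower with JQ1 (29.6%) and 5 higher (18.5%), near the 25.5% and 16.1% of all genes. In UPCI-SCC-090 it called 6 of 23 lower (26.1%) and 3 higher (13%), against 20.4% and 7.67% of all genes. Between the lines with DMSO, 9 of 27 were lower in UPCI-SCC-090 (33.3%) and 4 higher (14.8%), against 25.3% and 22.7% of all genes. JAK1 was among the lower ones (log2 difference -1.87 ± 0.31, edgeR adjusted p = 0.002) and SOCS1 among the higher ones (3.33 ± 0.35, edgeR adjusted p = 0.00018).

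The receptor chains IFNAR1 and IFNAR2 were not called with JQ1 in either line, with -0.89 ± 0.43 and -0.27 ± 0.17 (log2 fold change ± SE, edgeR adjusted p = 0.14 and 0.25) in UM-SCC-47. In UPCI-SCC-090 the values were -0.93 ± 0.69 and -0.78 ± 0.25 (edgeR adjusted p = 0.38 and 0.06). Their levels did not differ between the lines beyond the spread with DMSO (35.2 and 33.3 CPM for IFNAR1, 16.7 and 17.4 CPM for IFNAR2). JAK1 rose in both lines (0.66 ± 0.12, edgeR adjusted p = 0.0067, and 1.83 ± 0.49, edgeR adjusted p = 0.034). TYK2 fell in both (-0.93 ± 0.14, edgeR adjusted p = 0.0026, and -1.07 ± 0.32, edgeR adjusted p = 0.049). Its UPCI-SCC-090 groups overlapped, at 55.3, 89.5 and 69.2 CPM with DMSO and 34.3, 55.7 and 22.9 CPM with JQ1. STAT3 rose in both lines (0.72 ± 0.10 and 0.80 ± 0.23, edgeR adjusted p = 0.0025 and 0.042). The calls of these pathway genes were not checked in the alternative analyses.

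Among the sensors and adaptors outside the 48 genes, CGAS, the cytosolic DNA sensor, fell from 20.7 to 3.5 CPM in UM-SCC-47 (log2 fold change -2.57 ± 0.21, edgeR adjusted p = 0.00035) and in UPCI-SCC-090 from 28.4 to 3.89 CPM (-2.98 ± 0.38, edgeR adjusted p = 0.0042). MAVS, the adaptor of the RNA sensors, fell in both lines (-1.19 ± 0.15 and -2.09 ± 0.38, edgeR adjusted p = 0.0013 and 0.0096). ZBP1 and AIM2, further nucleic acid sensors, fell in UM-SCC-47 (-3.07 ± 0.62 and -2.85 ± 0.55), and the adaptor TICAM1 fell in UPCI-SCC-090 (-1.71 ± 0.40, edgeR adjusted p = 0.022). STING1, through which CGAS signals, was at 57.5 CPM with DMSO in UM-SCC-47 and at 0.148 CPM in UPCI-SCC-090 (log2 difference -8.68 ± 0.77, edgeR adjusted p = 8e-05).

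Calls were also made among receptors of other interferons and feedback genes. IFNLR1, the type III interferon receptor chain, fell in both lines (log2 fold change -0.94 ± 0.17 and -1.51 ± 0.30, edgeR adjusted p = 0.0064 and 0.013), IFNGR2 fell in UM-SCC-47 (-0.85 ± 0.23, edgeR adjusted p = 0.026), and in UPCI-SCC-090 IL10RB rose (1.04 ± 0.20, edgeR adjusted p = 0.01). SOCS3 fell in both lines (-0.78 ± 0.22 and -1.88 ± 0.39, edgeR adjusted p = 0.031 and 0.014). SOCS1, a feedback inhibitor of the JAK kinases, rose in UM-SCC-47 from 0.958 to 3.29 CPM (1.76 ± 0.29, edgeR adjusted p = 0.0043), as did the phosphatase PTPN6 (0.57 ± 0.14, edgeR adjusted p = 0.017).

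After 72 h of JQ1, the 48 genes summed to 3580 to 3730 CPM in the UM-SCC-47 libraries and to 785 to 1130 CPM in those of UPCI-SCC-090. The UM-SCC-47 range lay under that with DMSO, the UPCI-SCC-090 ranges overlapped, and the lines stayed apart under either treatment. In UM-SCC-47 with JQ1, 41 of the 48 genes still had a mean of at least 10 CPM, and IFI44L alone was under 1 CPM. In UPCI-SCC-090, 27 were under 1 CPM with JQ1 against 19 with DMSO.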

How the data were processed

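RNA-seq was done on 12 libraries, with 3 per group. The authors deposited a table of estimated counts per gene, made with Salmon 0.8.2 and listed beside DESeq2 1.28.0 in the submitters' processing notes. For the transcript index and its genome build, the sources used here name none. Estimated counts were rounded to whole numbers. Genes were named by Ensembl identifier from a GENCODE annotation lifted to GRCh37 (20015 of 20738 matched, 723 did not), which also gave positions and exon lengths. GC content is that of each gene's longest transcript in this annotation. Genes with low counts were removed with filterByExpr (minimum count 10, total 15), and TMM scaling and edgeR's quasi-likelihood test (edgeR 4.0.16, limma 3.58.1, R 4.3.3) were run on all genes of each comparison, with Benjamini-Hochberg adjustment and a threshold of 0.05. Each SE was derived from the fold change and its F statistic (their ratio, after taking the root of F). The scripts were tested on simulated data.

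Comparisons were JQ1 against DMSO within each line, the lines with DMSO, and the interaction. Alternatives were RLE factors, library size alone, no filter, DESeq2 1.42.0, the replicate number as a block, removal of each library's GC trend, 1 fit over 12 libraries, and leaving out libraries. Same-numbered libraries correlated in their deviations at -0.15, 0.2 and 0.43 in UM-SCC-47 and at 0.1, 0.79 and 0.21 in UPCI-SCC-090, so the numbers were not taken as pairs. No replicates agreed within counting noise. Calls of the other pathway genes and of the cell type markers were not checked in the alternatives.

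The list of 48 symbols uses no measured value as a criterion, but it and the other lists were drawn up with earlier results of these data known. Values in every library are given for a fixed set of regulators and effectors, for the 8 called genes of largest change reaching 5 CPM on average in the higher group, per JQ1 comparison, for every gene called higher, and for the 5 largest called differences between lines and between responses. Other genes are given by counts or means. A pathway gene that was tested and counted is not reported by name here.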

Additional observations from a re-analysis of the deposited data

Results flagged for a closer look

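For 5 of the 48 genes and for 1 further pathway gene, the test of the difference itself found that the JQ1 response differed between the lines (log2 fold change in UPCI-SCC-090 minus that in UM-SCC-47, edgeR interaction over 12 libraries). The difference was 5.34 for OAS1 (edgeR adjusted p = 0.00028), with the response downward in UM-SCC-47 and upward in UPCI-SCC-090. It was -2.94 for LGALS3BP (edgeR adjusted p = 0.0062), with the opposite pattern. UBE2L6 differed by -2.49 (edgeR adjusted p = 0.019). IFITM1 differed by -4.43 (edgeR adjusted p = 0.011), with 35 counts in the UPCI-SCC-090 DMSO libraries and 0 in the JQ1 libraries. IFITM1 was too low to be tested within that line and passed the count filter through UM-SCC-47. IFI27 differed by -2.24 (edgeR adjusted p = 0.045). The feedback inhibitor SOCS1, which is not one of the 48 genes, differed by -2.43 (edgeR adjusted p = 0.021) and was not checked in the alternatives.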

How the results depend on the processing

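Of the 23 genes called with JQ1 in UM-SCC-47, 14 were called in all 15 alternatives, as were 4 of 8 in UPCI-SCC-090, 41 of 44 between the lines and 2 of 5 interactions (of 20 alternatives). The number higher in UM-SCC-47 (3) was 5 with RLE (10.4%, against 19.5% of all genes) and 1 with library size alone (2.08%, against 10.8%). With DESeq2 it was 6 (12.5%, against 18.7%), and with GC correction 8 (16.7%, against 24.8%). With GC correction and replicate block it was 7 (14.6%, against 22.4%), and in the fit over 12 libraries 1 (2.08%, against 9.36%). Without the libraries of steepest GC trend it was 7 (14.6%, against 22.2%). The number lower in UPCI-SCC-090 (7 of 34) was 12 with library size (35.3%, against 23.3%) and 11 with the replicate block (32.4%, against 23.9%). With GC correction it was 12 (35.3%, against 26.4%), and with both 13 (38.2%, against 26.1%). In the 12-library fit it was 16 of 48 (33.3%, against 22.4%), and without the steepest libraries 12 of 36 (33.3%, against 16.5%). The number higher there (1) was 2 with RLE (5.88%, against 9.79%) and 2 of 42 with DESeq2 (4.76%, against 10.4%). With GC correction it was 5 (14.7%, against 19.5%), and with block and GC correction 6 (17.6%, against 19.1%). In the 12-library fit it was 4 of 48 (8.33%, against 13.3%). Between the lines, 1 gene (2.08%) was higher with library size (against 27.1% of all genes) and with GC correction (against 30.1%). Interaction calls (4 lower, 1 higher) were 10 lower with GC correction (20.8%, against 9.41% of all genes) and 4 higher (8.33%, against 9.26%). With the block too they were 7 (14.6%, against 8.33%) and 4 (8.33%, against 7.83%). Without the steepest libraries they were 2 (4.17%, against 2.24%) and 2 (4.17%, against 2.06%). With library size, DESeq2 or the replicate block, 2 were higher (4.17%, against 3.45%, 2.81% and 3.18%). Leaving out 1 library gave 16 to 22 lower in UM-SCC-47 (33.3% to 45.8%, against 17.9% to 27.2% of all genes). It gave 1 to 7 higher there (2.08% to 14.6%, against 8.87% to 22.2%). In UPCI-SCC-090, 4 to 8 were lower (10.8% to 21.6%, against 7.52% to 20.6%). There 1 to 2 were higher (2.7% to 5.41%, against 2.76% to 9.6%). Between the lines 41 to 44 were lower (85.4% to 91.7%, against 18.6% to 27.5%) and 0 to 1 higher. Interaction calls were 2 to 5 lower (4.17% to 10.4%, against 1.75% to 7.66%). They were 1 to 3 higher (2.08% to 6.25%, against 1.38% to 4.45%). The UM-SCC-47 count of 1 came without DMSO replicate 1, DMSO replicate 3 or JQ1 replicate 1, that of 7 without JQ1 replicate 3, and the UPCI-SCC-090 count of 4 without JQ1 replicate 1. SAMD9 in UPCI-SCC-090 turned from 0.56 to -1.73 (edgeR adjusted p = 0.037) without the steepest libraries. The causes were not tested. Among all genes, the share of calls that were higher went from 38.7% to 50.6% with DESeq2 and 49.5% with GC correction in UM-SCC-47, and from 27.4% to 43.1% and 42.5% in UPCI-SCC-090. Replicate numbers share only a number here, so the paired fits are given as counts. Low counts limit UPCI-SCC-090, where 14 of the 48 genes were not tested.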
